A study of Mus musculus with 3 samples.

Results

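The metastatic line of the mouse pancreatic tumour model HI-Panc was compared with the invasive line of the same model, 1 RNA-seq library against 1. The comparison used 2 of the 3 libraries of the series and 11404 of its 22734 named genes. These were the genes whose mean level over the 3 libraries reached 1 FPKM (fragments per kilobase of transcript, scaled to the depth of the library). Per the labels, both lines arose without immortalization from tumours of p16-/- transgenic mice, and the cultures were kept in DMEM plus 10% FBS. The metastatic line carries the tissue label liver, and the invasive line pancreatic tissue. The localized line, labelled body wall, carries the same genotype label. The labels do not explain why a localized tumour line has that tissue, so the lines are grouped by the stage label alone. The localized line is given as a further value where it helps to place a level. All 3 samples share a treatment text on cobalt chloride, an agent that mimics hypoxia (100 ng/ml for 24 h), which leaves unsaid whether these cells received it. Whether a line is a single clone, and whether the lines came from the same animal, is not stated in the labels. With 1 library a group (n = 1) no difference has a replicate check, so the values compare these libraries and not the stages, and no test was run.

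Pancreatic ductal tumours can switch on genes of neighbouring gut epithelia, stomach and intestine, that the healthy duct does not use. Isx and Cdx2 are homeobox transcription factors of the intestinal lining. Isx restrains vitamin A uptake and conversion there, and Cdx2 drives intestinal identity. Tumour cells grown as a line also make part of their own surroundings: collagens and other matrix proteins, cytokines that call in leukocytes, and surface molecules that present antigen. Immediate early genes such as Fos and Egr1 answer growth factor and stress signals within minutes, and interferon response genes answer viral and inflammatory signals.

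The depth, estimated from the steps that single fragments leave in low values, was 37700000 fragments for the invasive line against 40000000 for the metastatic line. Both libraries carried high levels of ductal keratins, with 2356 and 2247 FPKM of Krt8 and 1970.2 and 2365 FPKM of Krt19 (invasive, then metastatic, here and below). Of 15 hepatocyte markers, 2 passed the filter, and Alb, Cps1, Tat, Fgb and Ahsg lay at or near 0 in both libraries, including the metastatic library with its liver label. Their summed level was 13.4 and 16.3 FPKM, most of it Ass1 (10.8 and 14.8 FPKM). Of 20 leukocyte markers, 2 passed, Cd14 and Cd68, with 139 and 80.3 FPKM of Cd14, while the T-cell gene Cd3e and the myeloid gene Tyrobp were at 0 in both. The 15 fibroblast markers summed to 95.3 FPKM in the invasive and 14.5 FPKM in the metastatic library, against 606 FPKM in the localized library. Without Col1a1 and Col1a2 the other 13 summed to 15.6 and 10.9 FPKM. Without Col3a1 and Acta2 as well, the other 11 summed to 2.13 and 3.89 FPKM. Of the 9 fibroblast markers past the filter, 3 were at least 2-fold lower (Col1a1, Col1a2 and Acta2) and 0 higher, with a median difference of -0.08 in log2(FPKM + 1). Pdgfra (1.09 and 1.97 FPKM) and Pdgfrb (0.838 and 1.84 FPKM) lay above their invasive level, and Dcn, Cxcl12 and Dpt were under 0.1 FPKM in both lines. In whole-culture RNA, fewer cells of a type and less RNA per cell cannot be told apart.

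Of the 11404 genes, 152 (1.33%) exceeded the invasive level at least 2-fold in the metastatic library, on the scale of log2(FPKM + 1), and 191 (1.67%) at least 2-fold lower. Together 3.01% of genes passed 2-fold. At 4-fold the order turned, with 33 genes higher and 22 lower, and at 1.5-fold 400 were higher and 610 lower. The median difference was -0.01 and 48.6% of genes had a positive difference. Genes of low expression scattered more: from the 5th to the 95th percentile, differences ran from -0.80 to 0.73 below 3 FPKM, and from -0.52 to 0.40 at or above 100 FPKM. The genes called higher had a median of 1.7 FPKM in the invasive and 9.68 FPKM in the metastatic library. The genes called lower went from a median of 11.1 to 3.16 FPKM. Thus 49 of the 152 higher genes lay under 1 FPKM in the invasive library, and 46 of the 191 lower genes lay under 1 FPKM in the metastatic library.

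**Figure D1:**
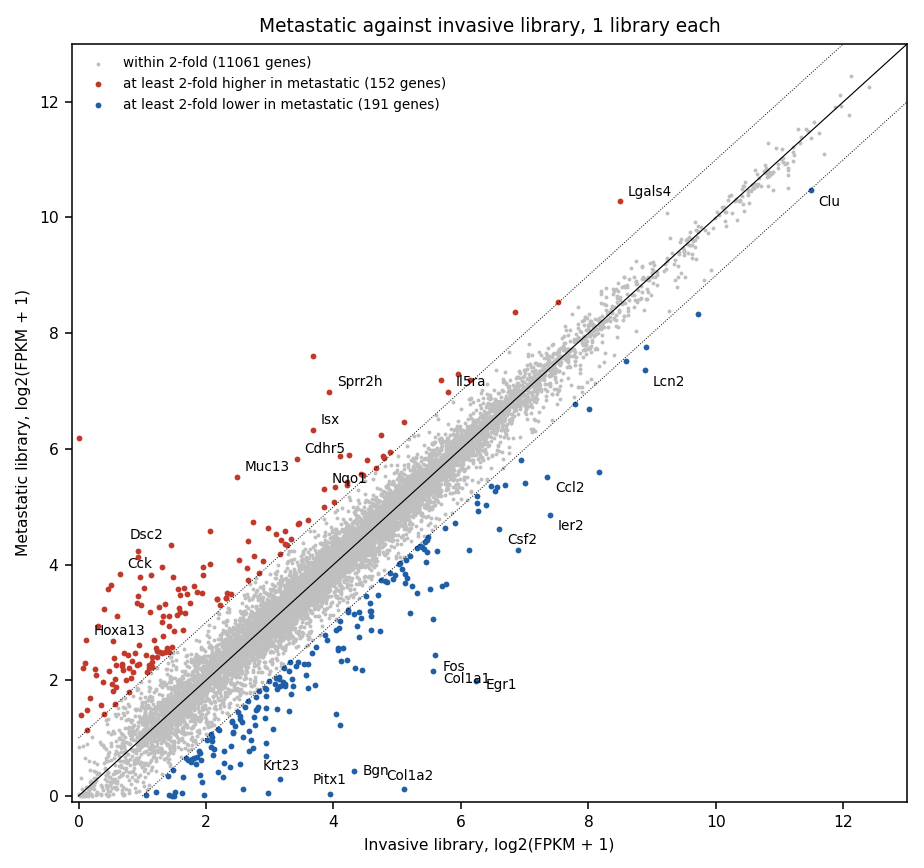
Level of each of 11404 genes in the invasive library (horizontal) and in the metastatic library (vertical), both as log2(FPKM + 1), 1 library each. The solid line marks equal levels and the dotted lines a 2-fold difference; 152 genes (red) lie above the upper dotted line and 191 (blue) below the lower one, with Isx, Lgals4 and Muc13 among the first and Col1a2, Egr1 and Pitx1 among the second.

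Among intestinal genes higher in the metastatic library were both surface proteins and transcription factors. Isx stood at 0.0407 FPKM in the localized, 11.7 in the invasive and 79.5 in the metastatic line. Isx (ENSMUSG00000031621.9) lies at chr8:74873173-74893506 on the plus strand of GRCm38, and was 6.77 times as high in the metastatic as in the invasive library (95% counting interval 6.23 to 7.38; such intervals cover counting error only, not differences between cultures or PCR). Cdx2 just missed the 2-fold mark on the log scale, with 35.2 and 70.6 FPKM, a difference of 0.98. The bile acid receptor Nr1h4 (FXR) was the other factor of the list past 2-fold, from 0.5 to 2.71 FPKM. Of 19 intestinal transcription factors past the filter, 2 were higher (10.5%, against 1.33% of all genes) and 0 lower, with a median difference of -0.06. Elf3 (102 and 97.5 FPKM), Klf5 (56.2 and 65.4 FPKM) and Pdx1, the pancreatic and duodenal factor (66.03 and 63.3 FPKM), differed little. Sox9, a factor of ducts and crypts, had 23.3 and 11.4 FPKM. Of the genes that Isx is known to repress in the gut, Bcmo1, which cleaves beta-carotene, was near 0 in both libraries (0.0677 and 0.0428 FPKM). Scarb1, a receptor that takes up carotenoids and lipids, had 20.1 FPKM in the invasive and 27.3 FPKM in the metastatic line.

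Among 24 genes of the intestinal surface, lipid handling and brush border, 8 were higher and 2 lower, 33.3% and 8.33% of the list against 1.33% and 1.67% of all genes. Their median difference was 0.48, and 17 of the 24 were positive. The protocadherin Cdhr5, which links the tips of microvilli, had 9.75 and 56 FPKM, a ratio of 5.74 (5.32 to 6.2). Cdh17, the liver-intestine cadherin, had 33.5 and 87.8 FPKM, and Tmigd1, an adhesion protein of the brush border, 61.2 and 156 FPKM. Lgals2, a galectin of gut epithelium, had 50.6 and 146 FPKM. All 4 of these genes were lower still in the localized library, at 0.0779, 2.32, 0.129 and 2.86 FPKM in the same order. Villin, the actin bundler of microvilli, did not share the difference: Vil1 had 7.44 and 7.07 FPKM. Anxa13 and Tspan8, also expressed in gut epithelium, had 44.5 and 30.9 FPKM and 439 and 429 FPKM.

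The 2 members that were lower, Tff1 and Tff2, are trefoil peptides of the stomach rather than of the intestine, and are on the gastric and ductal list too. Tff1 had 101 FPKM in the localized, 20.8 in the invasive and 3.55 in the metastatic line. Tff2 followed the same order with 482, 258 and 103 FPKM. The gastric aspartic protease Ctse had 35.7 and 8.01 FPKM, an invasive over metastatic ratio of 4.46 (4.09 to 4.88). The secreted chaperone Clu was among the most abundant lower genes, with 2865 and 1421 FPKM, a difference of -1.01 that falls short of 2-fold with values rescaled to TPM (-0.99) or centred by chromosome (-0.75). Of 21 gastric and ductal genes, 4 were lower, where 1.67% of all genes were, and 1 was higher (4.76%). The higher one was Cftr, the duct's chloride channel, at 0.807 and 3.41 FPKM. Gastric claudin Cldn18 (82.8 and 59.1 FPKM), Anxa10 (141 and 130.1 FPKM) and Muc1 (111 and 112 FPKM) lay within 2-fold.

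**Figure D2:**
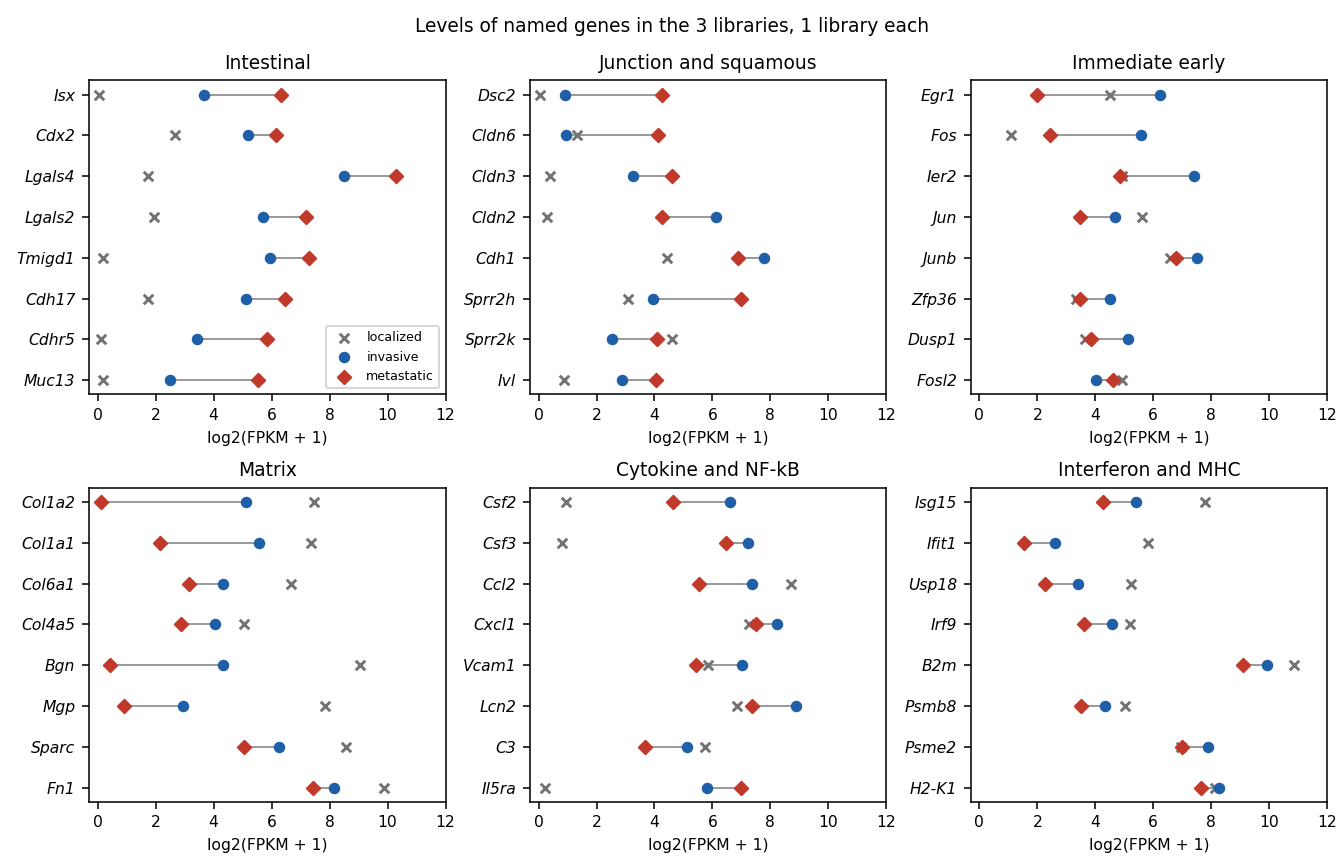
Levels of 48 genes in 6 groups as log2(FPKM + 1): cross, localized; circle, invasive; diamond, metastatic, 1 library each, with a line joining the invasive and metastatic values. In the intestinal panel each diamond lies to the right of its circle and each cross to the left, as for Isx at 0.041, 11.7 and 79.5 FPKM. In the matrix and interferon panels each diamond lies to the left of its circle. The genes drawn were chosen with earlier results known, so the common direction within a panel reflects that choice. List members that were level or went the other way, such as Vil1, Sox9, Irf7 and Lgals3bp, are not drawn.

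Other genes with large gains were of mixed kinds. They include Gulp1, an adaptor for the uptake of dying cells (1.05 and 11.1 FPKM), and Myl7, an atrial myosin light chain (1.48 and 14.5 FPKM). Mctp1 (1.93 and 10.9 FPKM), Gpr116 (1.18 and 8.08 FPKM) and Nap1l3 (0.458 and 5.39 FPKM) belong here too. The transcript 2610528A11Rik had 11.7 and 193 FPKM, a ratio of 16.4 (14.7 to 18.4). Slc5a8, a sodium-coupled carrier of short-chain fatty acids, had 3.19 and 22.9 FPKM, and the efflux pump Abcg2 0.241 and 6.63 FPKM. Abcg2 rests on few fragments in the invasive library, and its ratio of 27.5 has a wide counting interval (12.7 to 94.2). Lipoprotein lipase, Lpl, which frees fatty acids from circulating lipoproteins, had 5.64 and 25.8 FPKM. The sulfotransferase Sult1d1 had 0.886 and 9.11 FPKM, and the carbonic anhydrase relative Car8 1.81 and 12.7 FPKM. Clca4, of the family of chloride channel regulators, was already abundant at 114 FPKM and stood at 327 FPKM. Transcription regulators among the 30 largest gains were few: Tfec, a relative of Mitf (1.2 and 13.05 FPKM), Hdac9, a histone deacetylase (0.915 and 9.95 FPKM), Isx and Hoxa13.

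Genes better known from leukocytes were among the higher and the lower ones, beside a leukocyte marker list of which 2 of 20 passed the filter. On the lower side Cybb, an oxidase subunit of phagocytes, had 5.37 and 0.719 FPKM. Mcpt2, Mcpt4 and Mcpt1 are mast cell proteases: Mcpt2 had 25.7 and 74.6 FPKM, Mcpt4 0.958 and 12.8 FPKM, and Mcpt1 7.97 and 17.2 FPKM. These 3 were past 2-fold higher, while Mcpt8, at 39.3 and 74.5 FPKM, was within 2-fold. The 5 Mcpt genes summed to 73.9 and 179 FPKM, much of it Mcpt8, against 0.359 FPKM in the localized library. Defining mast cell genes Kit, Cpa3, Fcer1a and Ms4a2 were at 0 in both lines. Il5ra, a chain of the interleukin 5 receptor known from eosinophils, had 0.175 FPKM in the localized, 54.6 in the invasive and 126 in the metastatic line.

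Epithelial junction genes shifted in both directions. Dsc2, a desmosomal cadherin, had 0.904 and 17.9 FPKM, and Cldn6, an embryonic claudin, 0.914 and 16.5 FPKM. Cldn3, which seals tight junctions, had 8.46 and 23.1 FPKM, whereas Cldn2, which forms a cation pore in them, had 69.1 and 17.96 FPKM. E-cadherin, Cdh1, the core adhesion protein of epithelia, was also lower, 218 against 118 FPKM, but within 2-fold. Of 39 junction genes, 4 were higher (10.3%) and 1 lower (2.56%), with a median of 0.25 and 24 positive. Keratins of simple epithelia stayed within 2-fold, including Krt7 (598 and 1077 FPKM) and Krt20 (30.8 and 51.5 FPKM). Among 10 keratins 3 were lower, where 1.67% of all genes were: Krt23 (7.97 and 0.22 FPKM), the basal cell keratin Krt14 (5.01 and 0.0931 FPKM) and Krt80 (28.4 and 13.4 FPKM). The squamous keratin Krt13 was higher, 8.4 against 19.5 FPKM.

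Small proline-rich proteins of the Sprr2 family, cross-linked into the envelope of squamous cells and also made by stressed gut and biliary epithelium, differed member by member. The 9 Sprr2 genes together had 30.3 FPKM in the invasive, 170 FPKM in the metastatic and 41 FPKM in the localized library. Sprr2h made most of it, at 14.3 and 125 FPKM, with Sprr2k at 4.75 and 15.9, Sprr2d at 8.42 and 13.9 and Sprr2b at 0.42 and 11.5 FPKM. In contrast Sprr1a, the most abundant small proline-rich gene, had 353 and 273 FPKM. Involucrin, Ivl, another envelope protein, had 6.41 and 15.8 FPKM. Of 19 cornified envelope and squamous genes 4 were higher (21.1%) and 0 lower. Sprr2 coding sequences are alike, and the sum over the family depends less than single members on how reads were shared among them. The 200 bases upstream of the starts of Sprr2b and Sprr2h are shown because these members of one gene cluster had the largest differences of the family. They lie at chr3:92316505-92316704 and chr3:92385485-92385684 (GRCm38.p6, plus strand, RefSeq). Capitals mark TGANTCA, searched on both strands. With any base allowed in the middle, this pattern is wider than the AP-1 recognition sequence, so its shares are not shares of AP-1 sites.
Sprr2b: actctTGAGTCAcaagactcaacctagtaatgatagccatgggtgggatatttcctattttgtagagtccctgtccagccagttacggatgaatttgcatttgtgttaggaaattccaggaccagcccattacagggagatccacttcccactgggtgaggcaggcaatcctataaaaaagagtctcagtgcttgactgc
Sprr2h: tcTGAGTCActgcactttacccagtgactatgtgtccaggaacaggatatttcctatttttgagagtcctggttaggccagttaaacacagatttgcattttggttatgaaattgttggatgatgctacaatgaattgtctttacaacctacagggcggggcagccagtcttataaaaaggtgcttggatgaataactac
Each held 1 match, 195 and 198 bases upstream of the start, and the windows were 63.3% identical. TGANTCA was found within 200 bases upstream in 8 of 13 genes of the cornified list that had a promoter entry (61.5%), in 14 of 121 higher genes (11.6%) and in 12 of 137 lower genes (8.76%). Over all genes past the filter the share was 4.61%, and over all 32851 promoters 5.48%. A match is a description of these letters and says nothing on binding in these cells.

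The HoxA cluster on chromosome 6, whose genes set position along the body and gut axis, was nearly silent in the invasive line. Its 11 genes summed to 0.43 FPKM in the invasive and 14.6 FPKM in the metastatic library, and the localized library had 12.4 FPKM. All 11 were above their invasive level in the metastatic library. Hoxa13, the most posterior member, had 0.0856 and 5.45 FPKM, a ratio of 63.8 with a counting interval of 26.04 to 249, and was at 0 in the localized library. Hoxa10 was at 0 in the invasive library against 2.23 FPKM in the metastatic library, so at least 56.2-fold above the invasive level against a floor of 3 fragments. That floor takes the metastatic count without its own error, and the 95% counting interval of the ratio starts at 45.3. Hoxa5 and Hoxa7 had 0.1 and 1.81 FPKM and 0.0958 and 1.19 FPKM. In the localized library the balance lay toward anterior members instead, with 3.13 FPKM of Hoxa4, 3.32 of Hoxa5 and 0.243 of Hoxa10. The 10 HoxB genes summed to 1.04 and 2.92 FPKM, the 9 HoxC genes to 0.486 and 0.167 FPKM, and the 9 HoxD genes were at 0 in both. A homeobox gene of hindlimb and pituitary, Pitx1, had the opposite course, 14.4 FPKM in the invasive and 0.0304 FPKM in the metastatic line, where it rests on 2 fragments. The invasive over metastatic ratio of Pitx1 was 475, with a counting interval of 123 to 3698, or 111 with the deposited values as they stand, from which 0.1 FPKM was subtracted here, and the localized library also lay near 0 (0.0385 FPKM).

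Immediate early genes held some of the steepest differences on the lower side. Egr1, a zinc finger transcription factor, had 21.7 FPKM in the localized, 74.4 in the invasive and 2.96 in the metastatic line, an invasive over metastatic ratio of 25.2 (22.9 to 27.7). Fos, a subunit of AP-1, had 1.15, 47.1 and 4.39 FPKM in the same order. Ier2 had 29.2, 167 and 28.01 FPKM. The invasive library was the highest of the 3 for each of these genes, and for Ier2 the localized and metastatic levels were close. Jun, the partner of Fos, had 24.9 and 10.1 FPKM but was highest in the localized library at 48.3 FPKM. Zfp36, which speeds decay of cytokine mRNAs, had 21.9 and 10.0 FPKM. Of 28 immediate early and AP-1 genes, 5 were lower (17.9%) and 0 higher, with a median of -0.30. Not every member took part: Jund (90.6 and 88.6 FPKM), Myc (57.6 and 49.6 FPKM), Bhlhe40 (67.9 and 77.7 FPKM) and Fosl2 (15.3 and 23.6 FPKM) lay within 2-fold.

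Feedback and output genes of the ERK kinase pathway, a list that also holds growth factors and their receptors, differed less. Dusp1, a phosphatase that switches off stress and growth factor kinases, had 33.8 and 13.3 FPKM. It was the only one of 38 past 2-fold (2.63%, against 1.67% of all genes lower), and the median of the list was -0.10. Dusp6, the ERK phosphatase, had 144 and 124 FPKM, and cyclin D1, Ccnd1, 457 and 419 FPKM. The upstream windows of 3 genes of these groups are shown, since each holds a motif known from rapidly induced promoters: the CArG box of serum response factor in Zfp36 (chr7:28379229-28379428, minus strand), and the cyclic AMP response sequence TGACGTCA in Dusp1 (chr17:26508473-26508672, minus strand) and in Btg2, an antiproliferative gene (chr1:134079156-134079355, minus strand). Sequences are from RefSeq, GRCm38.p6, read 5′ to 3′ along the gene, with the match in capitals.
Zfp36: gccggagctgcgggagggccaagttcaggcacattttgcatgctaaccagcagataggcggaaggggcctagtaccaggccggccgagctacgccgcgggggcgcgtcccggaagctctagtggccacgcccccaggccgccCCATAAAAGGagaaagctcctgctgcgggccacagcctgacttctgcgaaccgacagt
Dusp1: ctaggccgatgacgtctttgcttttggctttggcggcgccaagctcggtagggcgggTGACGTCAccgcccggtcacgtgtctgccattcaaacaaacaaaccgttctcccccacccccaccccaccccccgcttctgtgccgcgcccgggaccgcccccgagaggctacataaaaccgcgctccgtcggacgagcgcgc
Btg2: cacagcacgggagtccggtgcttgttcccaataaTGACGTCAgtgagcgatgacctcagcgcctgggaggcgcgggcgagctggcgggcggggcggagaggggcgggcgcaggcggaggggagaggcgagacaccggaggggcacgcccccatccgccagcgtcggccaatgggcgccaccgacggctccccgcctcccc
The matches began 58, 143 and 166 bases upstream of the start. Btg2 had 35.4 and 22.96 FPKM, within 2-fold. Any part of these matches in the differences was not tested. Btg2 and Zfp36 are on the immediate early list, whereas Dusp1 is on the ERK list only. TGACGTCA was found in 2 of 21 immediate early genes with an entry (9.52%), in 2.94% of genes past the filter and in 1.47% of all promoters of this length. The CArG box was found in 2 of 21 (9.52%), 1.11% and 1.18%.

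Cytokine and NF-kB target genes differed gene by gene, with more of the large differences on the lower side. Csf2, which codes for the granulocyte-macrophage growth factor GM-CSF, had 0.948 FPKM in the localized, 96.2 in the invasive and 23.6 in the metastatic line. Csf3, a granulocyte growth factor, had 147 and 88.3 FPKM, within 2-fold. Ccl2, which draws monocytes, had 417 FPKM in the localized, 162 in the invasive and 44.96 in the metastatic line. The neutrophil chemokines Cxcl1 (302 and 181 FPKM) and Cxcl5 (2399 and 2161 FPKM) and Ccl20 (108 and 145 FPKM) lay within 2-fold. Ccl2 was thus the only one of the 17 genes of the chemokine list past it. Ppbp, a chemokine gene that is not on that list, was past 2-fold higher and is given under the other observations. Of 27 cytokines and receptors 2 were lower (7.41%, against 1.67% of all genes), Csf2 and Il34, and 1 was higher (3.7%, against 1.33%), Il5ra. Il34 was at the threshold, with a difference of -1.01, or -0.99 without the subtraction of 0.1 FPKM. The alarmin Il33 stayed level at 142 and 147 FPKM.

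Among 35 NF-kB targets and regulators, 4 were lower (11.4%) and 0 higher, with a median of -0.31 and 26 negative. Vcam1, an adhesion molecule for leukocytes, had 128 and 41.8 FPKM, a ratio of 3.06 (2.96 to 3.17). Lcn2, an iron-sequestering protein of inflamed epithelium, had 472 and 163 FPKM, and complement C3 33.7 and 11.8 FPKM. Traf1, an adaptor of TNF receptors, had 2.41 and 0.503 FPKM. The pathway's own inhibitor Nfkbia had 237 and 133 FPKM, and Tnfaip2 434 and 372 FPKM. Other secreted defence proteins were lower too: lactoferrin Ltf (103 and 40.4 FPKM) and complement factor B, Cfb (93.3 and 39.5 FPKM).

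Interferon response genes were shifted as a group by a small amount. Of 54 past the filter, 47 had a negative difference, the median was -0.45, and 17 were at least 1.5-fold lower, but only 5 were 2-fold lower (9.26%) and 0 higher. Isg15, a ubiquitin-like modifier, had 218 FPKM in the localized, 41.7 in the invasive and 18.2 in the metastatic line. Ifit1, which binds viral RNA caps, followed the same order with 55.2, 5.14 and 1.9 FPKM, as did Usp18, which removes Isg15 from proteins, with 37, 9.6 and 3.77 FPKM. Cmpk2 had 3.37 and 0.756 FPKM, and Rtp4 17.7 and 8.31 FPKM. Irf7, a main factor of interferon induction, did not share the shift, with 51.9 and 54.6 FPKM, nor did Lgals3bp, with 517 and 597 FPKM. Ifitm1, a membrane protein that blocks virus entry, differed most among genes of this kind, 287 against 47.6 FPKM. In the localized library it had 51.3 FPKM, close to the metastatic level and unlike the order of Isg15.

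The upstream windows of Isg15 (chr4:156200819-156201018, minus strand), Ifit1 (chr19:34640689-34640888, plus strand) and Ifit3, a relative of Ifit1 (chr19:34583329-34583528, plus strand), are shown because they carry the interferon-stimulated response element that the group is known for. Capitals mark this element, searched as GAAA, any 2 bases and GAAA again, on either strand; in Isg15 the 3 matches overlap. Sequences are from RefSeq, GRCm38.p6, read along the gene.
Isg15: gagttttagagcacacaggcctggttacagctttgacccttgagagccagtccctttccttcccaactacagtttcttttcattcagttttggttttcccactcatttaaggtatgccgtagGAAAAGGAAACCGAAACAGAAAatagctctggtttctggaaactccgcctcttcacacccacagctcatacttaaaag
Ifit1: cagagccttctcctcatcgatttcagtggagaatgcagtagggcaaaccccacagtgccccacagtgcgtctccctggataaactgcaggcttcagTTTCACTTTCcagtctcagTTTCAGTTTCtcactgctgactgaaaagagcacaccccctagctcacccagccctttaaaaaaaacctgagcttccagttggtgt
Ifit3: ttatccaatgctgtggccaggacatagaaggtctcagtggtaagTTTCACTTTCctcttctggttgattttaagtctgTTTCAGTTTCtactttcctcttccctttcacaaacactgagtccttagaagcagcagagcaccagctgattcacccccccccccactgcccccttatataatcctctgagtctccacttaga
The matches in Ifit1 and Ifit3 read on the opposite strand and number 2 each. Ifit3 itself was low, 1.65 and 0.645 FPKM against 22.9 FPKM in the localized library. The element was found in 17 of 39 interferon response genes with an entry (43.6%), against 2.32% of genes past the filter and 2.27% of all promoters. Among genes past 2-fold it was in 9 of 137 lower genes (6.57%) and in 2 of 121 higher genes (1.65%).

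Antigen presentation genes showed the same kind of small common shift. Of 20 past the filter 19 were negative, with a median of -0.47, and 7 were at least 1.5-fold lower, but 0 passed 2-fold in either direction. B2m, the shared light chain of class I molecules, had 1868 FPKM in the localized, 967 in the invasive and 546 in the metastatic line. Class I heavy chains H2-K1 (305 and 200.3 FPKM) and H2-D1 (656 and 482 FPKM) followed. Heavy chain genes are near-identical copies of each other in part, and reads can be split among them. The proteasome activator subunits Psme1 (229 and 133 FPKM) and Psme2 (237 and 126 FPKM) and Psmb8 of the immunoproteasome (19.4 and 10.4 FPKM) were lower by a like amount. Psme1 and Psme2 lie on chromosome 14, where genes were lower as a whole (below). The chaperone Calr was level, 473 and 490.0 FPKM.

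The 2 lists with the most lower genes were both of matrix genes. Of 18 collagen chains 8 were lower (44.4%) and 0 higher, with a median of -0.88. The 2 chains of type I collagen differed unequally: Col1a2 had 177 FPKM in the localized, 33.4 in the invasive and 0.0833 in the metastatic line, whereas Col1a1 had 162, 46.3 and 3.45 FPKM. The proteins pair in a fixed proportion in type I collagen, and the Col1a1 to Col1a2 balance in the metastatic library was far from that of the other 2. Col1a2 rests on 10 fragments there, and its invasive over metastatic ratio was 401 (225 to 864), or 183 if the deposited values are taken with the 0.1 FPKM that was subtracted from every value. Type VI chain Col6a1 had 19 and 7.83 FPKM, Col6a3 1.87 and 0.0474 FPKM, and the basement membrane chain Col4a5 15.4 and 6.33 FPKM. Col4a5, at a difference of -1.16, falls short of 2-fold when each chromosome is centred on its own median (-0.98). Fibrillar Col3a1 (8.67 and 6.57 FPKM), the main basement membrane chain Col4a1 (94.3 and 65.4 FPKM) and Col18a1 (195 and 210.3 FPKM) lay within 2-fold. Enzymes that fold and trim collagen did not follow: of 20, 0 passed 2-fold, their median was -0.11, and the collagen chaperone Serpinh1 had 111 and 91.2 FPKM.

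Of 40 proteoglycans and matrix glycoproteins 10 were lower and 0 higher, with a median of -0.50. The small proteoglycan Bgn had 535 FPKM in the localized, 19.1 in the invasive and 0.354 in the metastatic line. Mgp, which keeps matrix from calcifying, had 229.8, 6.66 and 0.877 FPKM, and Sparc, a collagen-binding protein, 376, 75.3 and 32.4 FPKM. All 3 were highest in the localized and lowest in the metastatic library. Thbs2, an inhibitor of vessel growth, had 2.09 and 0.036 FPKM. Igfbp6 was at 0 in the metastatic library and 1.84 FPKM in the invasive library, at least 27.2-fold lower against the floor of 3 fragments, and the proteoglycan Esm1, 1.78 FPKM in the invasive library, was at least 49.7-fold lower. Their counting intervals start at 21.6 and 40.02. The matricellular proteins Ctgf (91.9 and 37.8 FPKM) and Cyr61 (48.2 and 17.9 FPKM), which are also targets of the Hippo pathway, were lower as well. Of 27 Hippo pathway outputs 3 were lower (11.1%), these and Gadd45a (20.2 and 8.1 FPKM), 0 were higher and 22 had a negative difference, with a median of -0.12. Among the others, Ankrd1 (109.7 and 86.04 FPKM), Axl (97.9 and 78.9 FPKM) and Myof (121 and 136 FPKM), were not past 2-fold. Abundant matrix genes such as Spp1, osteopontin (3312 and 2196 FPKM), and Fn1, fibronectin (285 and 171 FPKM), were lower within 2-fold. The type I collagen genes and Acta2 are on the fibroblast marker list as well, whose summed levels are given above, and the part of other cells in these differences was not tested.

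Genes that cut or protect matrix were mixed. Of 39 extracellular proteases and inhibitors 5 were lower (12.8%) and 0 higher. Serpinf1, an inhibitor of vessel growth known as PEDF, had 16.1 and 1.33 FPKM, and Htra1, a secreted serine protease, 9.05 and 2.4 FPKM. The membrane protease Mmp14 (133 and 106 FPKM) and the inhibitor Timp2 (148 and 202 FPKM) stayed within 2-fold. Integrins and laminins had a median of -0.15 over 20 genes, with 4 at least 1.5-fold lower and 2 at least 1.5-fold higher. Lamb3, a laminin chain, was the only one past 2-fold, at 16.6 and 4.86 FPKM.

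Regulators and markers of the mesenchymal state split. The smooth muscle genes Acta2 (4.76 and 0.461 FPKM) and Tpm2 (23.2 and 6.29 FPKM) and the homeobox genes Prrx1 (4.34 and 1.16 FPKM) and Prrx2 (30.3 and 13.1 FPKM) were lower. Twist1, a driver of epithelial to mesenchymal transition, was higher, 6.13 against 13.5 FPKM, as was the surface sialomucin Cd34, 20.6 against 46.3 FPKM. Both remained far under their localized levels of 61.9 and 169 FPKM. Vimentin, Vim, an intermediate filament of mesenchymal cells, was high in both libraries, 2231 and 1853 FPKM. Of the 31 genes 4 were lower (12.9%) and 2 higher (6.45%), with a median of -0.37 and 23 negative.

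Among signalling pathways of stem and progenitor cells, in the Wnt list 2 of 31 genes were higher (6.45%, against 1.33% of all genes) and 0 lower: Rnf43, a ligase that removes Wnt receptors (1.21 and 4.28 FPKM), and Ascl2, a factor of intestinal stem cells (1.76 and 4.99 FPKM). Another gene of intestinal stem cells, Lgr5, had 1.2 and 0.193 FPKM, and with a mean under 1 FPKM it is not among the genes counted. Of 12 Notch genes 0 passed 2-fold. Of 38 BMP, Hedgehog and FGF genes 1 was lower (2.63%, against 1.67% of all genes), the ligand Bmp4 (9.15 and 3.04 FPKM). The BMP target Id1 had 172 and 89.8 FPKM, and Igf2, a growth factor, 101 and 50.2 FPKM, both near but within 2-fold. Among receptors and guidance genes outside these pathways, the semaphorin receptor Plxnb1 had 6.67 and 0.609 FPKM, and its relative Plxnb2 was level at 185 and 175 FPKM. The incretin receptor Glp1r had 5.67 and 0.778 FPKM.

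Vitamin A handling, which Isx touches in the gut, was examined in a few genes. Stra6, the receptor that takes up retinol, had 0.101 FPKM in the localized library, 34.8 in the invasive and 12.6 in the metastatic line, and was past 2-fold lower. Rbp2, the intestinal retinol carrier, was level at 26.7 and 28.1 FPKM. Cyp26b1, which degrades retinoic acid, had 5.5 and 2.72 FPKM, and the receptor Rara 22.4 and 23.3 FPKM. These genes form no list with a count.

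The list of genes against oxidants and electrophiles also holds metal response and NADPH oxidase genes. Its members past 2-fold were on the higher side: of 48 genes 5 were higher (10.4%) and 0 lower, with a median of 0.12. Nqo1, a quinone reductase and a classical target of Nrf2, had 182 FPKM in the localized, 13.4 in the invasive and 38.7 in the metastatic line. The aldehyde dehydrogenase Aldh3a1 had 184 and 371 FPKM, and the glutathione transferase Gsta3 28.5 and 60.5 FPKM. Noxa1, an activator of an NADPH oxidase, had 2.63 and 10.5 FPKM. The oxidase gene Cybb, which is not on the list, was past 2-fold lower (above). The peroxiredoxin Prdx1 (742 and 780.2 FPKM) and the metallothionein Mt1 (622 and 802 FPKM), also abundant, were within 2-fold.

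Because the treatment text of the labels concerns cobalt chloride, the genes that answer hypoxia were examined. Of 44 glycolysis and hypoxia genes 1 was higher (2.27%, against 1.33% of all genes), the peptide hormone Adm (8.03 and 20.6 FPKM). The median was 0.11. Pfkfb3, an activator of glycolysis (11.4 and 22.9 FPKM), and Hilpda, a lipid droplet protein (47.7 and 95.3 FPKM), lay just within 2-fold on the log2(FPKM + 1) scale. Vegfa (57.6 and 46.9 FPKM) and Car9 (7.23 and 4.15 FPKM), both classical hypoxia targets, were lower within 2-fold. In fat metabolism, Pparg, the adipogenic receptor, had 37.4 and 73.4 FPKM, and the lipid droplet gene Plin4 0.435 and 2.83 FPKM, while the fatty acid carrier Fabp5 had 17.8 and 8.08 FPKM. Of 25 cholesterol synthesis genes 19 were negative and 0 passed 2-fold, and their median was -0.27.

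Growth and stress genes were close to level. Of 51 cell cycle genes, 45 genes of the unfolded protein and integrated stress responses, 34 ribosomal protein genes and 28 housekeeping genes, 0 passed 2-fold, with medians of -0.11, -0.10, -0.06 and 0.04. Targets of p53 had a positive median of 0.35, with 21 of 25 positive and 0 past 2-fold. Ccng1 had 70.1 and 116 FPKM, the apoptosis gene Bax 159.6 and 200.5 FPKM, and the cell cycle inhibitor Cdkn1a 116 and 150.1 FPKM. The level of Trp53 itself was 129 and 115 FPKM. Histone genes past the filter, many of them variant genes such as H2afz and H3f3a, had 5 of 16 lower, where 1.67% of all genes were. Their median was -0.74, and the linker histone Hist1h1c led at 53.1 and 11.7 FPKM.

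**Figure D3:**
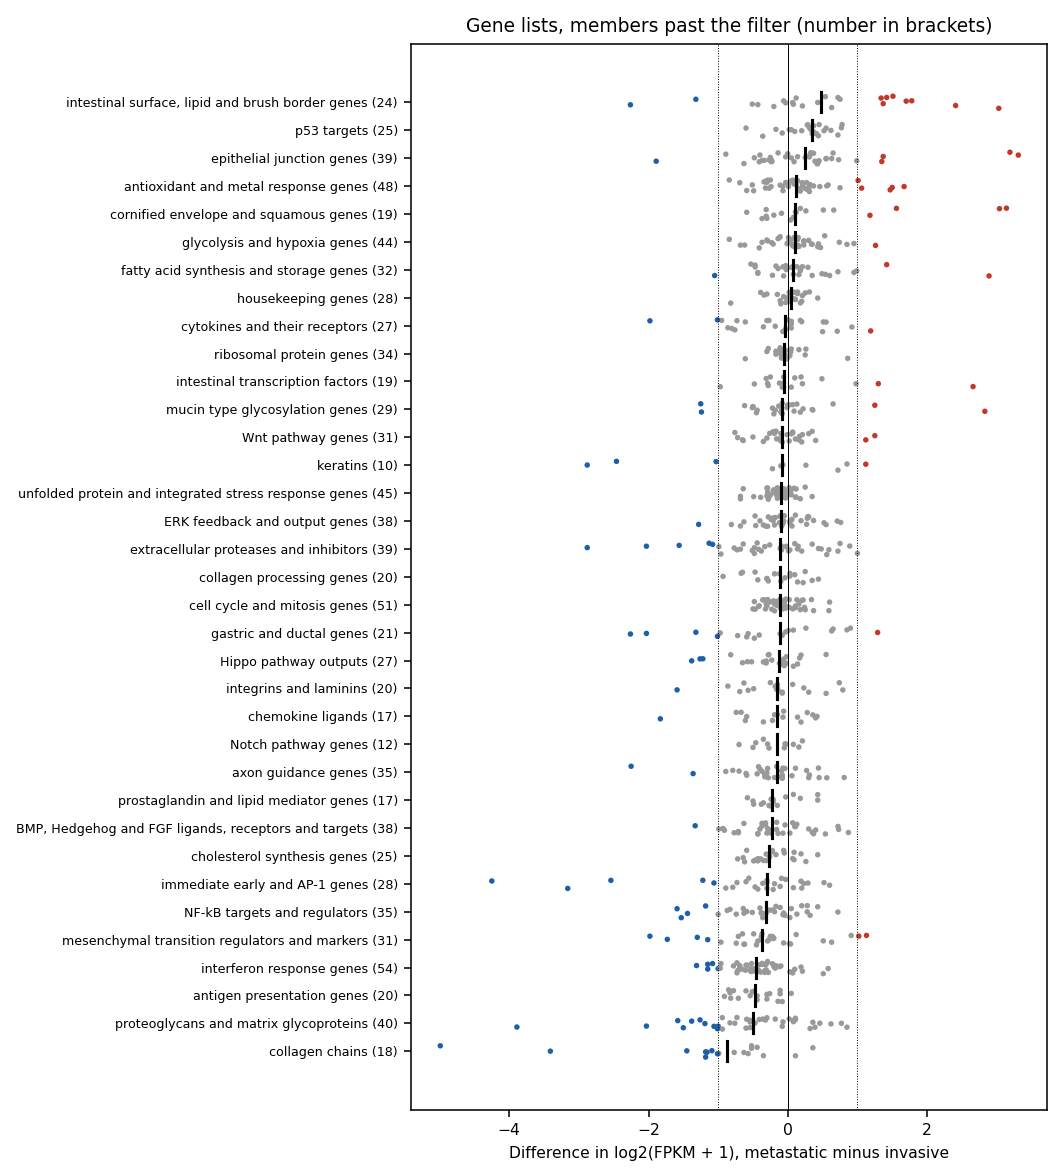
Difference in log2(FPKM + 1), metastatic minus invasive, of each gene (point) in the 35 pathway lists with 10 or more members past the filter (cell type marker lists are not drawn), ordered by median (black bar); red and blue points are at least 2-fold higher or lower. Collagen chains have the lowest median, -0.88 over 18 genes, and the intestinal surface genes the highest, 0.48 over 24 genes, while all 11404 genes have a median of -0.01.

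The plot of the lists also shows how spread and median part. The interferon and antigen presentation lists lie almost wholly left of 0 within a narrow band, whereas immediate early genes centre near -0.30 with a long tail of 3 genes, Egr1, Fos and Ier2. Some genes are on more than 1 list, so the lists are not independent.

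Small differences in the same direction ran along whole chromosomes. On chromosome 5 the median difference was 0.26, with 84.8% of 729 genes positive, and on chromosome 14 it was -0.26, with 14.1% of 384 genes positive. Chromosome 9 had a median of -0.17 over 641 genes and chromosome X of -0.18 over 350 genes. Chromosome 16 stood at 0.09, chromosomes 2 and 18 at -0.08, and every other chromosome between -0.02 and 0.03. These shifts were below the size of a call: chromosome 5 had 9 genes higher and 2 lower, and chromosome 14 had 6 higher and 10 lower. Against the localized library the invasive library had medians of -0.20 on chromosome 5 and 0.33 on chromosome 14, and the metastatic library 0.09 and 0.06. On chromosome X the medians against the localized library were -0.01 for the invasive and -0.23 for the metastatic line. These comparisons share the localized library and are given side by side only.

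**Figure D4:**
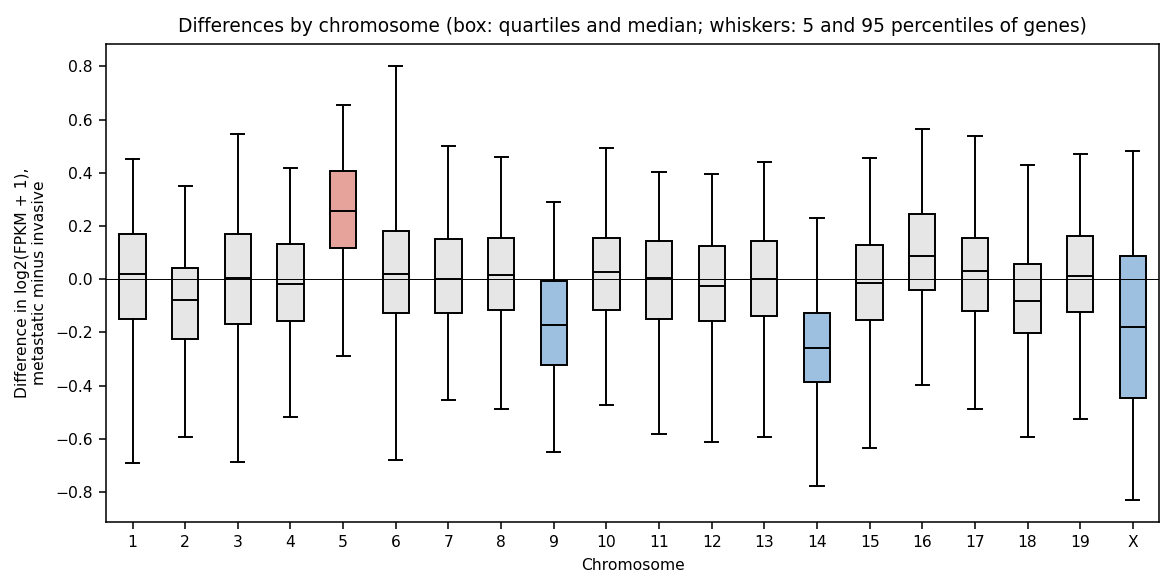
Difference in log2(FPKM + 1), metastatic minus invasive, of genes past the filter by chromosome; boxes give the quartiles and the median, whiskers the 5th and 95th percentiles. Chromosome 5 (red) has a median of 0.26, and chromosomes 14, 9 and X (blue) have medians of -0.26, -0.17 and -0.18.

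Running medians over 25 neighbouring genes showed where the shifts lay. Of 10840 windows, 394 (3.63%) had a median at or past 0.3 in size, 160 higher and 234 lower, and all lay on chromosomes 5, 6, 9, 14 and X. On chromosome 5 and chromosome 14 the running median kept to 1 side along nearly the whole length. On chromosome X the shift stopped partway: the 178 genes up to Zfx, which ends at position 94123702, had a median of -0.38 with 20 positive, and the 172 genes beyond it had a median of 0.01 with 94 positive. This boundary was placed after the values were seen. Against the localized library, the genes up to Zfx had medians of -0.36 in the metastatic and -0.01 in the invasive library. Bgn and Rpl10 (2238 and 1464 FPKM) lie in the lower stretch, and Cldn2 lies beyond it. On chromosome 6 a single stretch of 25 genes from Gpnmb to Mturn, chr6:49036546-54703851, had a median of 0.39 with 22 positive and 5 higher. Its medians against the localized library were -0.01 for the metastatic and -0.19 for the invasive library. The stretch holds the HoxA cluster, of which 5 genes passed the filter and 3 of these were called higher. With invasive levels of about 0.1 FPKM or less, these genes passed only through the other libraries. The filter thus favoured a positive difference for them, and they enter the median and the count. What underlies these shifts was not tested.

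**Figure D5:**
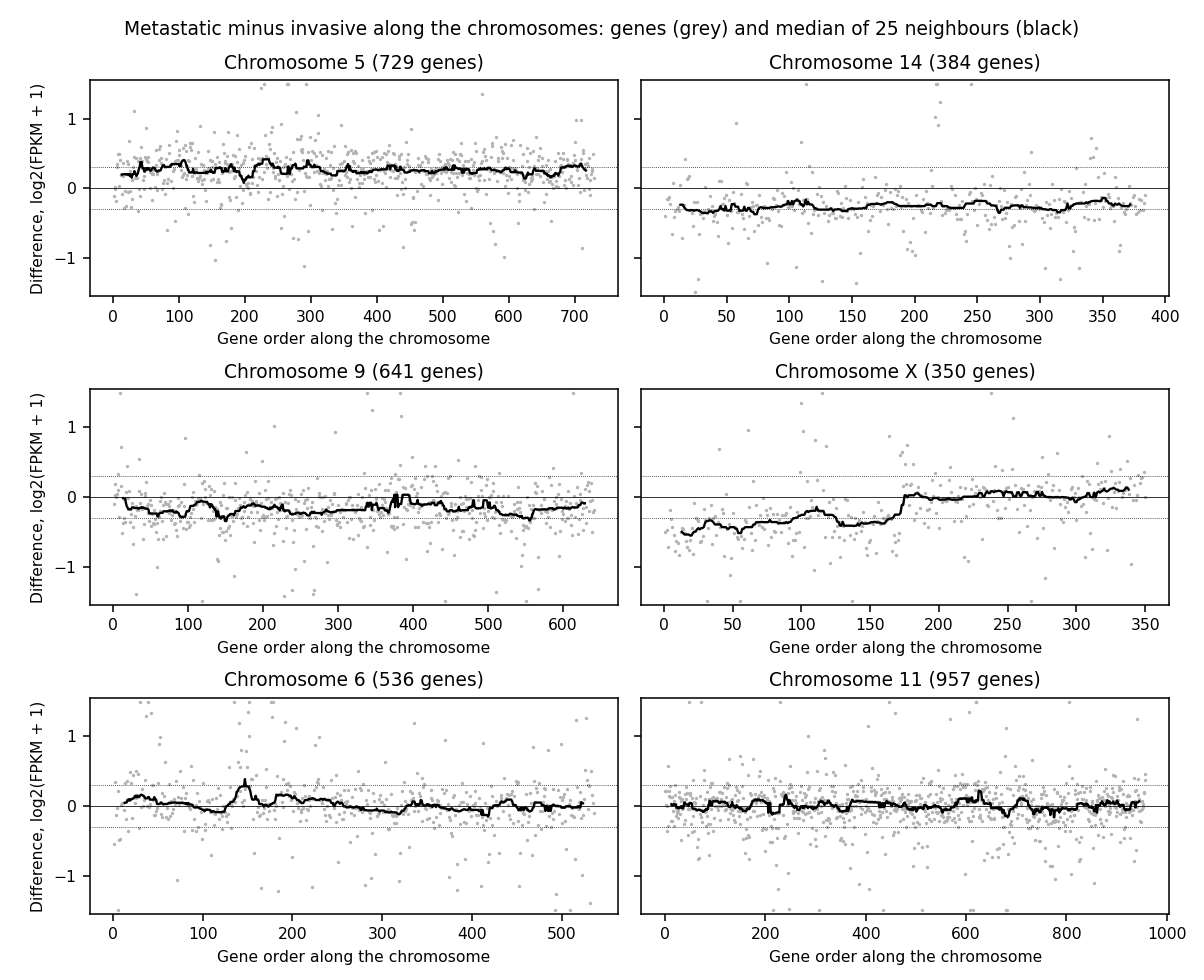
Difference in log2(FPKM + 1), metastatic minus invasive, of genes (grey, drawn at the edge where past 1.5) in their order along chromosomes 5, 14, 9, X, 6 and 11, with the median of 25 neighbours (black) and dotted lines at -0.3 and 0.3. The running median lies above 0 along chromosome 5 and below 0 along chromosome 14, steps from about -0.38 to 0.01 on X, peaks at the HoxA stretch on 6 and stays near 0 on 11.

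Several of the steepest differences belong to genes with a near-identical copy and are uncertain as gene values. Eif3j1 had 6.88 and 0.0355 FPKM, but its sum with Eif3j2 was 31.7 FPKM in both libraries. Amd1 had 2.91 and 0.0102 FPKM, and its sum with Amd2 was 59.4 and 55.8 FPKM. Naip1 had 0.968 and 8.9 FPKM, while the 5 Naip genes summed to 23.1 and 25.3 FPKM. For these 3 families the total was nearly level although single members differed. Among the Naip genes 1 lay above its invasive level and 4 below, such as Naip5 (6.25 and 3.44 FPKM) and Naip6 (4.01 and 1.69 FPKM). For Lgals4 and Lgals6, in contrast, the sum itself went from 361 to 1250 FPKM. Gm12238, which RefSeq lists as a small nucleolar RNA, was at 0 in the invasive and 72.3 FPKM in the metastatic library, at least 113-fold higher against the floor, with a counting interval that starts at 91.3. FPKM of so short a transcript depends heavily on fragment size. Snrpn, whose transcript runs through a cluster of such RNAs, had 0.055 and 3.62 FPKM, resting on 4 fragments in the invasive library.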

How the data were processed

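Gene levels were deposited by the authors as FPKM, 1 column per library, per the file headers. Tools named in the submitters' processing notes, without their roles, are Cufflinks 2.2.1, STAR 2.5.2a and FastQC 0.11.2, and the build is GRCm38. Pairing and strand are not given in the sources used here, and a gene and its antisense partner cannot be told apart. The lowest deposited FPKM was 0.1 in each column, and 0.1 was subtracted throughout as an added constant, a reading of the values that no source states. It sets the ratios of genes near 0. Of 22784 entries, 27 with a number for a name and 23 short RNA genes were left out. Genes whose 3-library mean reached 1 FPKM were compared as log2(FPKM + 1), a scale on which low genes show less than their fold, and called at a difference of 1 (2-fold). No test fits 1 library a group. Fragments were estimated from whole-fragment steps of low values (81.8% to 84.6% of low values within 0.15 of a whole number) and gave exact 95% counting intervals and floors of 3 fragments. Positions came from GENCODE M21 (22330 genes matched) and upstream sequences from RefSeq. Of 1499 listed symbols, 1484 matched directly and 10 by an older symbol. Members and lists were chosen with earlier results of these data known. Named were the 30 largest differences in each direction without predicted genes, list members past 2-fold with up to 6 further abundant ones, family neighbours of a called gene, and Isx. Named after their values were seen were 2610528A11Rik, Bcmo1, Btg2, Car9, Cfb, Clca4, Cldn18, Cyp26b1, Esm1, Fosl2, Gm12238, Hoxa10, Ifit3, Lgr5, Ltf, Muc1, Pfkfb3, Pparg, Psmb8, Psme2, Rara, Rpl10, Scarb1, Sox9, Sprr1a, Stra6, Vegfa, Vil1 and marker genes at 0. One allele of the genotype label is not reported here. Python 3.11.15, pandas 2.3.3, numpy 2.4.6 and scipy 1.17.1 were used.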

Additional observations from a re-analysis of the deposited data

How the results depend on the processing

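The counts of genes past 2-fold, 152 higher and 191 lower, were recomputed under 12 planned settings and 1 chosen after seeing the data. With a pseudocount of 0.1 FPKM, 373 genes were lower. With a filter of 5 FPKM, 69 genes were higher, a stricter filter that tests fewer genes. At 1.5-fold the counts were 400 and 610, and at 3-fold 61 and 51. The other settings kept each count within 1.5 times. With each chromosome centred on its own median, the setting chosen after seeing the data, 156 genes were higher and 184 lower. Of 131 named genes past 2-fold, 131 kept their direction and 125 their call in every setting run for single genes. The other 6 had a size of 1 to 1.16: Clu (-0.75 centred by chromosome, -0.99 in TPM), Col4a5 (-0.98 centred by chromosome), Col15a1 (-0.98), Il34 (-0.99), Vcan (-0.98) and Hoxa7 (0.94), the last 4 with 0.1 not subtracted. Without that subtraction 148 genes were higher and 181 lower. The 12 lists with a median of at least 0.25 in size kept its sign throughout. No replicate could be left out, and no paired analysis was possible because each group has 1 library. Genes with few fragments in 1 library, such as Pitx1, Col1a2, Abcg2 and Hoxa13, have ratios whose size depth leaves wide, and genes at 0 only give bounds. The 3 libraries do not separate line, tissue of origin, culture and library preparation.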

Other observations

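Abundant genes outside the lists also passed 2-fold, and those named here were chosen after their values were seen. On the lower side, Crip1, a small zinc-binding protein, had 839 FPKM in the invasive and 322 FPKM in the metastatic line, and Pea15a, which holds ERK in the cytoplasm, 477 and 217 FPKM. The prohormone-processing enzyme Cpe had 221 and 108 FPKM, the histone variant gene H2afx 122 and 55.1 FPKM, and the water channel Aqp1 58.9 and 25.5 FPKM. Pea15a was far lower in the localized line at 41.3 FPKM, whereas Crip1, Cpe and Aqp1 were highest there, at 1086, 342 and 160.3 FPKM.

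On the higher side, the phosphate carrier Slc20a1 had 26.5 and 57.6 FPKM, the elastase inhibitor Serpinb1a 16.1 and 57.5 FPKM, and the cyclic GMP kinase Prkg2, a regulator of intestinal secretion, 26.6 and 56.2 FPKM. Pde9a, which degrades cyclic GMP, had 15.3 and 39.5 FPKM. Gas6, a ligand of the receptor Axl, had 24.5 and 49.97 FPKM, just past 2-fold on the log2(FPKM + 1) scale, and the platelet-type chemokine Ppbp had 20.95 and 45.9 FPKM. In the localized line these genes ranged from 0.058 FPKM for Pde9a to 62.5 FPKM for Prkg2.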
